A study of Mus musculus with 8 samples.

Results

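The plasminogen activator system was examined through 7 genes of the deposited RNA sequencing table: Plat, Plau, Plaur, Anxa2, S100a10, Serpine2 and Serpinf1. They were taken by gene symbol, as a set of proteases, binding proteins and serpin family members linked to this system and to clearance by the endocytic receptor LRP1. The choice rule used no measured value, but it was made with earlier results of these data known. The table listed 22520 genes, and all 7 passed the filter on low values that left 11389 genes for testing. RNA came from 8 libraries of C57BL/6 mice at postnatal day 14, 4 labelled LRP1 KO and 4 labelled as wild type (WT). The series describes microvascular endothelial cells of lung, heart and liver from endothelial LRP1 knockout mice and littermates, and each library is labelled as a mixture of cells from these organs. The study's methods give the knockout as LRP1 f/f; Cdh5-CreER+/-, in which an inducible Cre is driven by the endothelial Cdh5 promoter, and the WT littermates as LRP1 f/f; Cdh5-CreER-/-, so that both groups carried floxed alleles. They also describe cells selected with beads against PECAM-1. The study's results treat cells from liver and cells from heart and lung separately, whereas the labels give mixtures. Nothing in the labels says that libraries of a group came from separate animals, so the p-values below measure the spread between libraries, which may be technical.

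Plasmin is the protease that dissolves fibrin and degrades matrix proteins, and it is made from circulating plasminogen by tissue-type (tPA, gene Plat) or urokinase-type (uPA, gene Plau) plasminogen activator. Urokinase acts while bound to its receptor uPAR (gene Plaur), and plasminogen and tPA can bind at the cell surface to a complex of annexin A2 (gene Anxa2) with S100A10 (gene S100a10). Serpins, which form covalent complexes with the proteases they inhibit, restrain the activators, and LRP1 takes many of these complexes into the cell for degradation. Endothelial cells are a known source of tPA in the vessel wall.

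Promoter sequence is shown for the members with an entry in the promoter table, since it lets the genes that were called be set beside those that were not. RefSeq (GRCm38.p6) gave windows for Plaur, Serpine2, Serpinf1 and Anxa2, and none for Plat, Plau and S100a10. Each line holds the 250 bases before the transcription start, 5′ to 3′ on the strand of the gene, with matches to 4 motifs in capitals.
Plaur: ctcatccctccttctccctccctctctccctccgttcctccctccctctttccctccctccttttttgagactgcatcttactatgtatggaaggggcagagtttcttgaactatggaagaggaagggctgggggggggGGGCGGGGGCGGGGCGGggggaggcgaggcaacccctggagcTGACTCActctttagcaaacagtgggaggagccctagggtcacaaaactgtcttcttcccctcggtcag
Anxa2: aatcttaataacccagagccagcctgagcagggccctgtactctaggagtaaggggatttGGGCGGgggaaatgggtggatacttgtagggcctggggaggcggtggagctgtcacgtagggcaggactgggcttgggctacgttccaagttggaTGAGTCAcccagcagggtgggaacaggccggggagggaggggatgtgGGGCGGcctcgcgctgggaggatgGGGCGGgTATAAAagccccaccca
Serpine2: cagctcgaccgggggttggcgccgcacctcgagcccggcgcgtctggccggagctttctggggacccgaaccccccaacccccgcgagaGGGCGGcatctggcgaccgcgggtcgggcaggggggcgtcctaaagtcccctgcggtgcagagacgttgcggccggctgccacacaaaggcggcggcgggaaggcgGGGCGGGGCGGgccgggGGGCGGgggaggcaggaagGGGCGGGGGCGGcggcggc
Serpinf1: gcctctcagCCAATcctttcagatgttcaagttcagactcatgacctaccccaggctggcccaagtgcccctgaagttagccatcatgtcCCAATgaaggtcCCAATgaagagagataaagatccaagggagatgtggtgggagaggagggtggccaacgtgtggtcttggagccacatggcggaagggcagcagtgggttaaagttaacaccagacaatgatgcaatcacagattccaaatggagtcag

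The windows lay at chr7:24462233-24462482 on the plus strand (Plaur), chr9:69453433-69453682 on the plus strand (Anxa2), chr1:79858666-79858915 on the minus strand (Serpine2) and chr11:75422624-75422873 on the minus strand (Serpinf1). Both strands were searched for TGANTCA, the site of the AP-1 factors, for the GC box GGGCGG, for the TATA box TATAAA and for CCAAT, and overlapping matches were counted. Plaur and Anxa2 each held 1 AP-1 match, which began 69 and 95 bases upstream of the start, and each held 3 GC boxes, of which the pair nearest the start in Plaur overlapped. Anxa2 alone of the 4 held a TATA box, 17 bases upstream. The Serpine2 window was 78.8% G or C, against a median of 52.4% over all windows, and held 6 GC boxes. Serpinf1 held 3 CCAAT matches and none of the other motifs. Of 32851 windows of this length, 6.75% held the AP-1 letters, 32.7% a GC box, 12.4% the TATA letters and 33.8% CCAAT. GENCODE places the outermost start of Serpine2, Serpinf1 and Anxa2 upstream of the RefSeq start used here. These matches describe letters in a window and not sites of binding.

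Before the members were compared, the targeted gene and the make-up of the libraries were examined. Lrp1 was at 103 to 140 FPKM (mapped fragments per kilobase of transcript and unit of library size) in the WT libraries. In LRP1 KO libraries 1 to 4 it was at 3.45, 5.20, 2.79 and 7.72 FPKM. The difference between the groups was -4.45 in log2(FPKM + 1) (SE 0.23, limma adjusted p 8.89e-05). The values had been quantile normalized, so library depth is unknown. On the first principal component, LRP1 KO library 4 lay at 0.102, between WT (-24.1 to -12.9) and the other 3 LRP1 KO libraries (17.2 to 27.3), and results that rest on it are given with and without it. The 15 endothelial markers summed to only 172 to 187 FPKM in WT and to 623, 395, 461 and 180 FPKM in the LRP1 KO libraries by number. In WT, Cdh5 was at 8.87 to 11.2 FPKM and the most abundant endothelial marker, Eng, had a mean of 56.5 FPKM. The WT libraries held 2349 to 2744 FPKM of 8 mesothelial markers, most abundantly Msln, against 2050 to 2297 FPKM in LRP1 KO, and 2617 to 3795 FPKM of 13 fibroblast markers, of which Col1a2 was the most abundant over all 8 libraries. Summed macrophage markers ran from 106 to 130 FPKM in WT and from 258 to 603 FPKM in LRP1 KO, and mural cell markers from 591 to 755 and from 970 to 1587 FPKM. In such bulk libraries a smaller share of one cell type and less RNA per cell cannot be told apart.

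Of the 7 members, 2 were higher in LRP1 KO (Anxa2 and Serpine2), 1 was lower (Plau) and 4 did not pass the test, with limma and a threshold of 0.05 on the p-value adjusted across all tested genes. Of all tested genes, 6.27% were called higher and 7.31% lower by the same rule. The further limit of a 2-fold change was passed by 1.62% of tested genes in either direction and by 0 members, also when the limma p-value was left unadjusted, while 5 members had an unadjusted limma p-value under 0.05, as did 3838 of the 11389 tested genes. In 2 members (Plaur and Serpine2) the lowest LRP1 KO library exceeded the highest of WT, and in 1 (Plau) the reverse held, against 8.84% and 10.7% of tested genes. Estimates were positive for 6 members, and the median over the 7 was 0.40, against -0.01 over all tested genes. The counts moved with the library left out, and so did calls over all tested genes. Calls in either direction covered 13.6% of tested genes with all libraries. That share was 26.5% without LRP1 KO library 4 and 4.50% to 8.85% without another library. Leaving out 1 library at a time gave 0 to 3 members called higher, with 0 without WT library 2 or LRP1 KO library 2, 1 without WT library 3 or 4 or LRP1 KO library 1 or 3, and 3 without LRP1 KO library 4, and the member called lower was lost without LRP1 KO library 2 or 3.

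**Figure D1:**
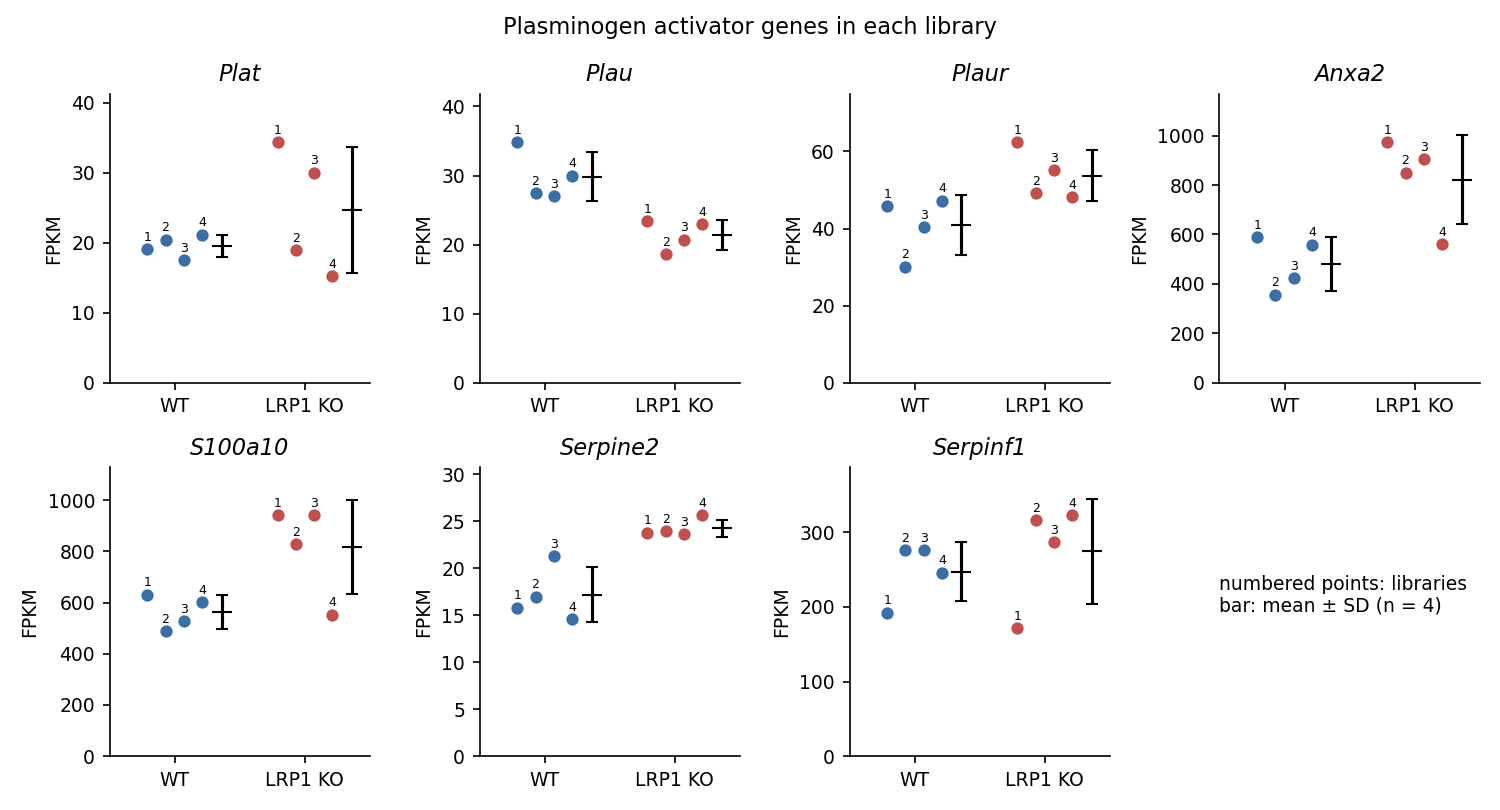
Expression of the 7 plasminogen activator genes in FPKM (vertical axes, from 0), in WT (blue) and LRP1 KO (red) libraries numbered 1 to 4, with the mean ± SD (n = 4) as a bar. The groups do not overlap for Plau, Plaur and Serpine2, and LRP1 KO library 4 falls at or near the WT values for Anxa2 and S100a10.

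Of the activators, urokinase was called and tPA was not. Plau (ENSMUSG00000021822, chromosome 14, plus strand, 20836660 to 20843385 in GRCm38) encodes urokinase, the activator linked to cell migration and matrix breakdown. WT libraries 1 to 4 held 34.8, 27.5, 27.0 and 30.0 FPKM, and LRP1 KO libraries 1 to 4 held 23.4, 18.6, 20.7 and 23.0 FPKM. All 4 LRP1 KO libraries were below the lowest WT library, and the spread was similar in both groups. The mean fell from 29.8 ± 3.58 to 21.4 ± 2.22 FPKM (SD, n = 4 each), or to 71.8% of WT, a log2(FPKM + 1) change of -0.46 (SE 0.098, 95% interval -0.68 to -0.24, limma adjusted p 0.0201). The two-sided p-value by exact permutation was 0.0286, the lowest that this design can reach. The call was lost without LRP1 KO library 2 (-0.40, limma adjusted p 0.0574) or 3 (-0.44, limma adjusted p 0.0584), within adjusted p-values of 0.00789 to 0.0584 over all alternatives.

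Plat (ENSMUSG00000031538, chromosome 8, plus strand, 22757727 to 22782844) encodes tPA, the activator that works best on fibrin. Its WT values were 19.1, 20.4, 17.6 and 21.2 FPKM, close to one another, and its LRP1 KO values, again by library number, were 34.4, 18.95, 30.0 and 15.3 FPKM. LRP1 KO libraries 1 and 3 were above all of WT, library 2 was within WT and library 4 was below it. The means of 19.6 ± 1.60 and 24.7 ± 9.02 FPKM (SD, n = 4 each) differed by less than this spread, with a log2(FPKM + 1) estimate of 0.25 (SE 0.22, limma adjusted p 0.448) and a 95% interval of -0.24 to 0.75 that covers both a fall and a rise. The estimate was 0.45 without LRP1 KO library 4 (limma adjusted p 0.0905), 0.0742 without library 1 (limma adjusted p 0.837) and 0.14 without library 3, and it did not pass with any library left out. Among the LRP1 KO libraries, the 2 with the highest Plat were also the 2 with the highest summed endothelial markers, and library 4 was the lowest in both, while the part of these markers in the Plat values was not tested.

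The receptors and surface binding proteins had positive estimates throughout. Plaur (ENSMUSG00000046223, chromosome 7, plus strand, 24462484 to 24475968) encodes uPAR, a lipid-anchored protein that holds urokinase at the cell surface. In WT it measured 45.7, 30.1, 40.3 and 47.2 FPKM, and in LRP1 KO 62.4, 49.2, 55.1 and 48.1 FPKM. The groups did not overlap, but the gap between LRP1 KO library 4 and WT library 4 was under 1 FPKM. The means were 40.9 ± 7.73 and 53.7 ± 6.56 FPKM (SD, n = 4 each), with an estimate of 0.40 (SE 0.14, 95% interval 0.08 to 0.71) that did not pass over all tested genes (limma adjusted p 0.0839; exact two-sided permutation p = 0.0286). It did not pass under any alternative run, with limma adjusted p-values of 0.0556 to 0.204.

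Anxa2 (ENSMUSG00000032231, chromosome 9, plus strand, 69453620 to 69491795) encodes annexin A2, a calcium-dependent membrane-binding protein. It measured 589, 357, 424 and 558 FPKM across the WT libraries and 973, 850, 905 and 561 FPKM across those of LRP1 KO. Libraries 1 to 3 of LRP1 KO were above all of WT, while library 4 lay inside the WT range. The mean rose from 482 ± 109.8 to 822 ± 181 FPKM (SD, n = 4 each), or to 171% of WT, the largest estimate of the 7 members at 0.77 on the log2(FPKM + 1) scale (SE 0.20, 95% interval 0.31 to 1.22, limma adjusted p 0.0372). By exact two-sided permutation p was 0.0571. This call was the least stable of the 3: without WT library 2, 3 or 4 or LRP1 KO library 1, 2 or 3 the limma adjusted p was 0.0503 to 0.103 with estimates of 0.63 to 0.85, whereas without LRP1 KO library 4 it was 0.00467 with an estimate of 0.94. It was also lost without a filter on low values (limma adjusted p 0.0783). The exons of Anxa2 overlap those of Gm16144 on the opposite strand, and whether reads were assigned by strand is not given in the sources used here.

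S100a10 (ENSMUSG00000041959, chromosome 3, plus strand, 93555080 to 93564643) encodes the small partner protein that annexin A2 stabilizes and whose tail binds plasminogen. WT held 631, 488, 528 and 602 FPKM of it and LRP1 KO 940, 829, 940 and 552 FPKM. As for Anxa2, the first 3 LRP1 KO libraries were above all of WT and library 4 was inside its range. The means of 562 ± 66.1 and 816 ± 183 FPKM (SD, n = 4 each) gave an estimate of 0.51 (SE 0.17, 95% interval 0.14 to 0.89), which did not pass (limma adjusted p 0.0695; exact two-sided permutation p = 0.0857). Without LRP1 KO library 4 the estimate was 0.69 with a limma adjusted p of 0.00195, and with any other library left out the adjusted p was 0.0897 to 0.178. LRP1 KO library 4 also had the lowest summed endothelial and mural markers of its group and macrophage markers of 546 FPKM, and the part of these cell types in the Anxa2 and S100a10 values was not tested.

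**Figure D2:**
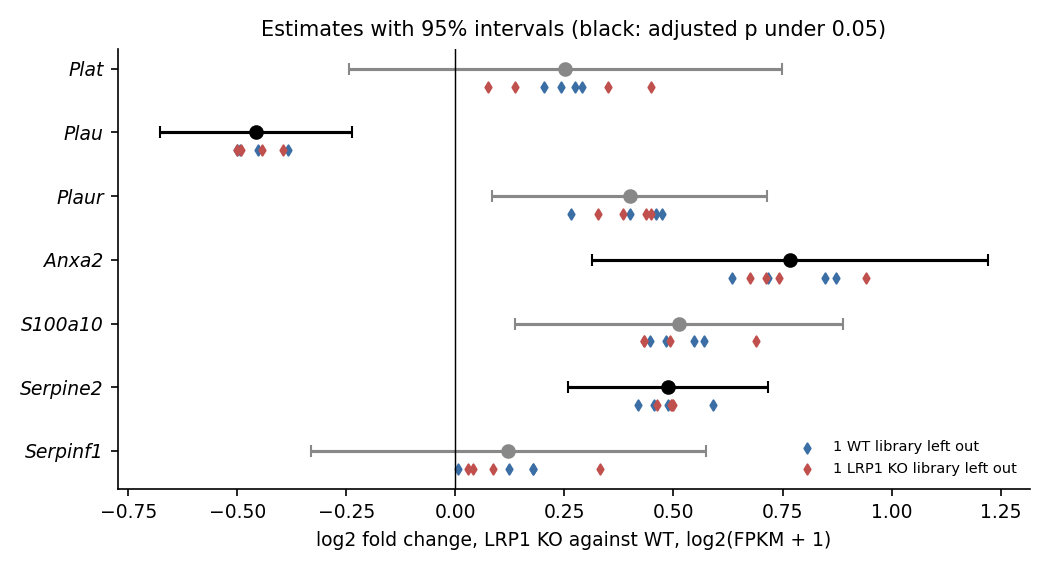
Log2 fold change of each member in LRP1 KO against WT on the log2(FPKM + 1) scale (horizontal axis) with its 95% interval (black, limma adjusted p under 0.05; gray, not), and diamonds for the 8 fits that left out 1 WT (blue) or 1 LRP1 KO (red) library. Every diamond kept the sign of its estimate, and the widest moves to the right, for Anxa2, S100a10, Plat and Serpinf1, came from leaving out 1 LRP1 KO library.

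Of the 2 serpins, Serpine2 was called and Serpinf1 was not, and the difference between them was not tested. Serpine2 (ENSMUSG00000026249, chromosome 1, minus strand, 79794197 to 79861180) encodes protease nexin-1, an inhibitor of thrombin, urokinase, tPA and plasmin whose complexes LRP1 internalizes. Its level was 15.8, 17.0, 21.3 and 14.6 FPKM in the WT libraries and 23.8, 23.9, 23.6 and 25.6 FPKM in the LRP1 KO ones. The LRP1 KO libraries were all above WT and close to one another, library 4 included. The mean rose from 17.2 ± 2.92 to 24.3 ± 0.931 FPKM (SD, n = 4 each), or to 141% of WT, a log2(FPKM + 1) change of 0.49 (SE 0.10, 95% interval 0.26 to 0.72, limma adjusted p 0.0190; exact two-sided permutation p = 0.0286). The call was lost without WT library 2 (0.49, limma adjusted p 0.0575) or LRP1 KO library 2 (0.49, limma adjusted p 0.0548), within 0.00413 to 0.0575 over all alternatives.

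Serpinf1 (ENSMUSG00000000753, chromosome 11, minus strand, 75409769 to 75422701) encodes pigment epithelium-derived factor, a secreted member of the serpin family that does not inhibit proteases and is known as an antiangiogenic factor. WT libraries held 192, 276, 276 and 246 FPKM, and LRP1 KO libraries held 172, 316, 287 and 323 FPKM. In 3 of the 4 LRP1 KO libraries the value was above all of WT, and library 1 was below it. The means of 247 ± 39.4 and 274 ± 70.1 FPKM (SD, n = 4 each) differed by less than the spread, with an estimate of 0.12 (SE 0.20, 95% interval -0.33 to 0.57, limma adjusted p 0.705). Over all alternatives the estimate ran from 0.00518, without WT library 1, to 0.33, without LRP1 KO library 1, and it did not pass in any. In both groups library 1 was the lowest for Serpinf1 and for the summed fibroblast markers (2617 FPKM for WT, 2117 FPKM for LRP1 KO), and the part of these markers was not tested.

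FPKM values are per length, so the members can be put in order within a group. In WT the highest were S100a10 and Anxa2, whose ranges overlapped, at the 98.7th and 98.5th percentile of tested genes. Serpinf1 followed at the 97.4th percentile, apart from both neighbours and with a mean 6.06 times that of Plaur. Plaur and Plau overlapped, Plau was apart from Plat, and Plat overlapped with Serpine2, the lowest member, at the 61.7th percentile. In LRP1 KO, Anxa2 and S100a10 still overlapped at the top and were followed by Serpinf1 and then Plaur, each apart from its neighbours. Below them Plat and Serpine2 overlapped, and Plau had gone from the fifth place in WT to the last, apart from Serpine2. The surface proteins and Serpinf1 were thus above the activators and Serpine2 in both groups.

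Ratios within a library do not depend on a single scaling factor, although quantile normalization can alter them and could not be undone, and 4 of them were compared with exact two-sided permutation tests. The ratio of Plau to Plaur, urokinase over its receptor, was 0.762, 0.912, 0.671 and 0.635 in WT and 0.375, 0.378, 0.376 and 0.478 in LRP1 KO libraries 1 to 4. Every LRP1 KO ratio was below every WT ratio, with a difference of -0.88 in the mean log2 ratio (exact permutation p = 0.0286, 0.0571 adjusted over the 4 ratios). The ratio of S100a10 to Anxa2, the subunits of one complex, was 1.07, 1.37, 1.24 and 1.08 in WT and 0.966, 0.975, 1.04 and 0.985 in LRP1 KO. These groups did not overlap either (difference -0.26, exact permutation p = 0.0286, adjusted 0.0571), and library 4 lay within the range of the other LRP1 KO libraries in this ratio although it was not in the levels of these genes.

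The ratio of Plat to Plau, between the activators, was 0.547 to 0.744 in WT and 1.47, 1.02, 1.45 and 0.665 in LRP1 KO. In LRP1 KO libraries 1 to 3 tPA transcripts were above those of urokinase, as in no WT library (difference 0.74, exact permutation p = 0.0857, adjusted 0.114). The ratio of Plat to Serpine2, activator over inhibitor, was 0.824 to 1.45 in WT and 0.596 to 1.44 in LRP1 KO and overlapped (difference -0.25, exact permutation p = 0.571, adjusted 0.571). Without LRP1 KO library 4 the difference was -0.0200 for Plat over Serpine2 and 0.98 for Plat over Plau (exact permutation p-values adjusted over the ratios, 0.914 and 0.0571), and it was -0.97 for Plau over Plaur and -0.25 for S100a10 over Anxa2 (adjusted exact permutation p-values, 0.0571 and 0.114). With 4 libraries a group no ratio can go below 0.0286 before adjustment, and none of the 4 passed 0.05 after it.

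**Figure D3:**
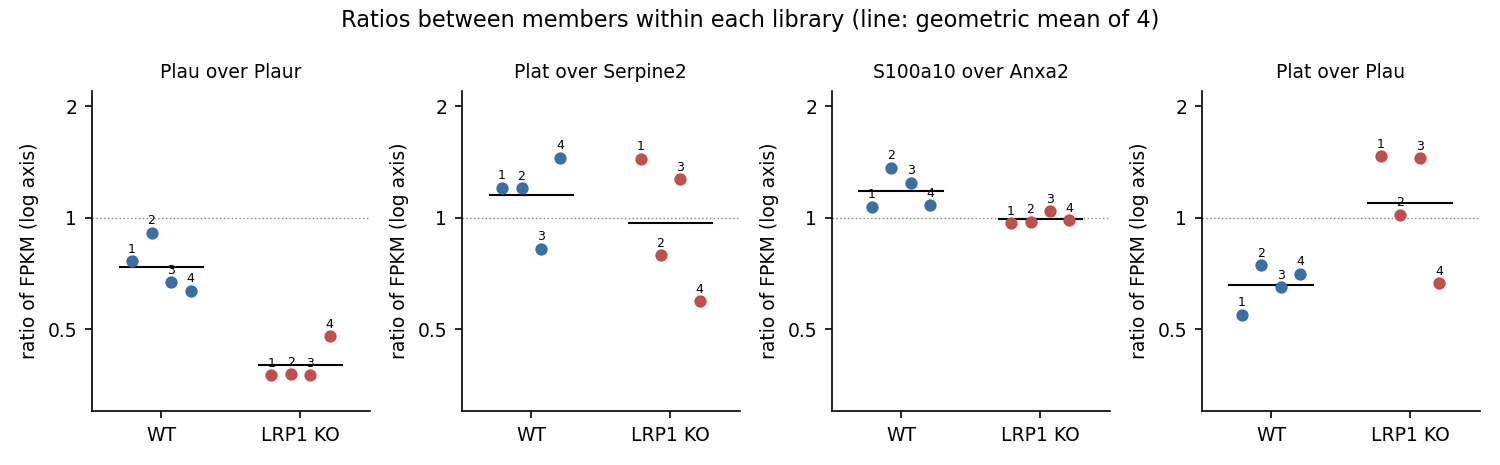
Ratios of FPKM between pairs of members within each library (log axis), in WT (blue) and LRP1 KO (red), with the geometric mean of 4 libraries as a line and a ratio of 1 dotted. Plau over Plaur and S100a10 over Anxa2 do not overlap between groups, while Plat over Serpine2 does.

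The other genes of the pathway were read from lists. Of 12 other inhibitors of plasmin and its activators, 5 were tested, 2 were higher, 1 was lower, and the median estimate was 0.32. Serpinb2, which encodes PAI-2, rose from 1.13 to 2.84 FPKM (limma adjusted p 0.0142), and Serpinb6a, an intracellular serpin, from 224 to 282 FPKM (limma adjusted p 0.0493). Serpind1, which encodes the thrombin inhibitor heparin cofactor II, fell from 3.59 to 0.744 FPKM (limma adjusted p 0.00482). The calls of Serpinb2 and Serpind1 held with any 1 library left out, while that of Serpinb6a held only without LRP1 KO library 4, with limma adjusted p-values of 0.0789 to 0.135 without each of the other 7. Cpb2, which encodes a carboxypeptidase that protects fibrin, and Pzp were listed at 0 in every library.

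Plasminogen itself was listed at 0 in all 8 libraries. Of 14 genes for plasminogen, contact proteases and substrates of these proteases, 3 were tested, 1 rose and 1 fell, with a median of 0.09. Pdgfd, a growth factor that urokinase can activate, rose from 2.22 to 6.69 FPKM (limma adjusted p 0.0111), and Pdgfc, a related factor that tPA can activate, fell from 56.5 to 34.8 FPKM (limma adjusted p 0.0201). Pdgfd held with any 1 library left out, whereas Pdgfc did not pass without WT library 2 or LRP1 KO library 1, 2 or 3 (limma adjusted p 0.0577 to 0.0606). The 11 untested genes of this list were at 0.416 FPKM or less in every library.

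Of 15 other genes for plasminogen-binding proteins and uPAR partners, 12 were tested, 3 were higher and 0 were lower by limma, with a median of 0.24. Itgb2, a leukocyte integrin chain that pairs with uPAR, rose from 1.41 to 5.22 FPKM (limma adjusted p 0.00328) and held with any 1 library left out. Eno1, an enolase that binds plasminogen at the cell surface and has near-identical copies in the genome that could share its reads, went from 476 to 604 FPKM (limma adjusted p 0.0289), and Igf2r, a receptor for uPAR and plasminogen, from 10.6 to 13.4 FPKM (limma adjusted p 0.0443). When libraries were left out in turn, both of these passed only without LRP1 KO library 4, with limma adjusted p-values of 0.0514 to 0.126 without each of the other 7. Without LRP1 KO library 4, 7 of the 12 tested genes of this list were called, and without any other library 1 was. Over all tested genes these shares were 26.5% and 4.50% to 8.85%. Summed macrophage markers, also higher in LRP1 KO, were given above, and their part was not tested.

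Of the LDL receptor family list, which includes Lrp1, 6 of 8 genes were tested, and 1 gene, Lrp1, was lower while 0 were higher by limma, with a median of -0.19. Among 9 tested annexins other than Anxa2, 3 rose and 1 fell, with a median of 0.17. Anxa8 rose from 17.0 ± 3.17 to 38.5 ± 6.85 FPKM (SD, n = 4 each; limma adjusted p 0.00329), Anxa1, an abundant annexin known for limiting inflammation, from 1661 to 2343 FPKM (limma adjusted p 0.0263) and Anxa3 from 205 to 283 FPKM (limma adjusted p 0.0478), while Anxa11 fell from 61.1 to 42.8 FPKM (limma adjusted p 0.00545). The calls of Anxa8 and Anxa11 held with any 1 library left out. Without LRP1 KO library 4 the list had 6 calls among its 9 tested genes, where 26.5% of all tested genes were called. Anxa1 was lost without WT library 1 or 2 or LRP1 KO library 1, 2 or 3 (limma adjusted p 0.0617 to 0.0761), and Anxa3 without any library but LRP1 KO library 4 (limma adjusted p 0.0733 to 0.126). Of 9 tested S100 genes other than S100a10, all had positive estimates with a median of 0.38, and 1 was called. That gene, S100a8, a calcium-binding protein of myeloid cells, rose from 0.813 to 2.52 FPKM (limma adjusted p 0.0475), and its call held only without WT library 1 or LRP1 KO library 3 (limma adjusted p 0.0596 to 0.13 without each of the other 6). S100a9 of the same list was at 0 in every library. Without LRP1 KO library 4, 3 of the 9 tested genes of the S100 list were called, against 26.5% of all tested genes.

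The marker lists were set beside these results. Of 11 tested macrophage markers 8 were higher in LRP1 KO, with Lyz2 the most abundant, and Cx3cr1 and Fcgr1 were at or near 0. Estimates were negative for 2, Cd14 (37.3 to 26.9 FPKM) and Mertk (14.3 to 13.8 FPKM), and neither was called. Of 7 tested mural markers 4 were higher, with Acta2 (360 to 711 FPKM) and Tagln (298 to 549 FPKM) the most abundant. The mural sums rested mostly on these genes. The 2 mural markers under the filter, Rgs5 (0.720 to 0.669 FPKM) and Kcnj8 (0.197 to 0.221 FPKM), overlapped between groups. Whether mural cells were more numerous was not tested. Of 15 endothelial markers all had positive estimates and 1, Eng, was called. Of 12 tested fibroblast markers all had negative estimates and 3 were called lower, and of 8 mesothelial markers 3 were called lower. Of the hepatocyte markers Alb was at or near 0 and 2 were tested, of which Trf, the most abundant, was lower (888 to 422 FPKM) and Ahsg higher (10.5 to 21.6 FPKM). The cardiomyocyte list rested on Tnnt2, the only one tested, which was not called. The other 5 markers of that list were at 1.97 FPKM or less in every library. Lung epithelium and neutrophil markers summed to at most 6.84 and 0.568 FPKM in any library, and Scgb1a1 of the lung list was called lower (2.89 to 1.13 FPKM). These counts stand beside the lower Plau and the higher Anxa2 and Serpine2 in LRP1 KO, and the part of these cell types in the values of the members was not tested.

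**Figure D4:**
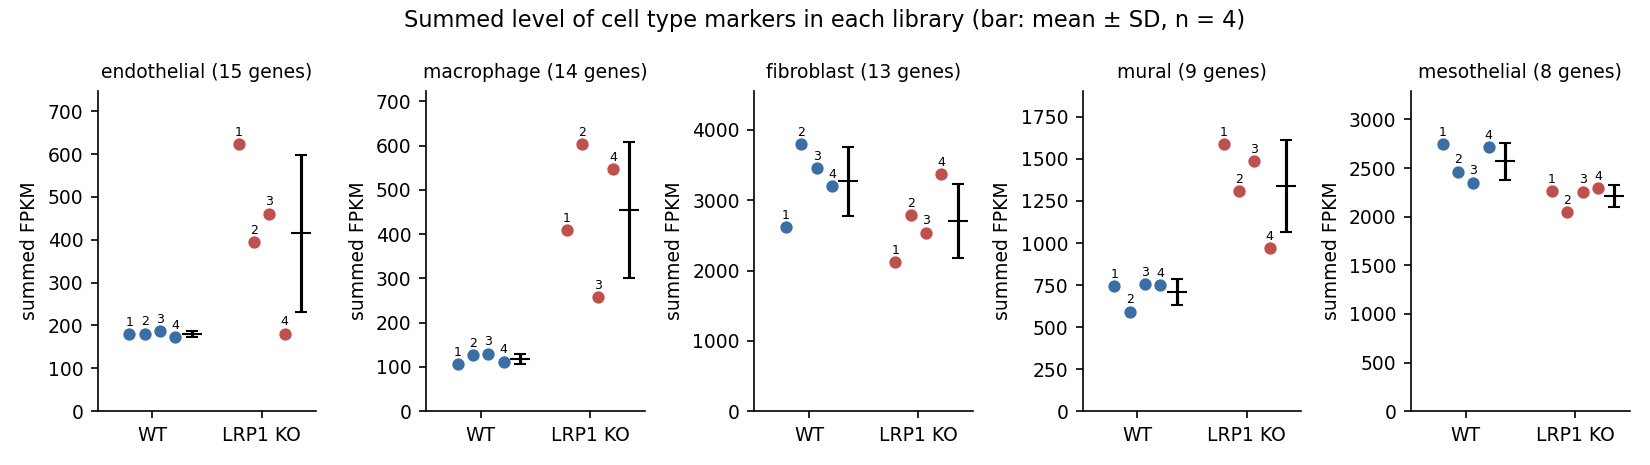
Summed FPKM of 5 marker lists (vertical axes, from 0) in WT (blue) and LRP1 KO (red) libraries numbered 1 to 4, with the mean ± SD (n = 4). Macrophage and mural sums do not overlap between groups and are higher in LRP1 KO, mesothelial sums do not overlap and are lower, and the endothelial sum of LRP1 KO library 4 lies among the WT libraries.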

How the data were processed

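The authors deposited one table of FPKM values for 8 libraries (TruSeq, total RNA, RNeasy extraction). The submitters' processing notes name TopHat2, Cufflinks and mm10. The study's methods describe trimming, alignment and gene counts on the GENCODE annotation, but the deposited values are not counts. They were quantile normalized, which hides depth and any shift in total RNA, and the unit is inferred from Cufflinks and the values. FPKM was analysed as log2(FPKM + 1), which understates changes of low genes. Genes with at least 1 FPKM in at least 4 libraries were fitted with limma 3.58.1 (R 4.3.3, group only, intensity trend), with Benjamini-Hochberg adjustment over 11389 genes. Groups came from sample titles. The fit was tested on simulated data. Exact permutation tests covered the 70 ways to choose 4 of 8 libraries. No 50-base stretch of a member's longest coding transcript occurred in transcripts of another gene. Positions are from GENCODE M21. Motifs were searched in RefSeq promoter windows.

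The members and the gene lists were chosen with earlier results of these data known. All members and Lrp1 were named, with called genes of the pathway lists (at most 5 each), list genes under the filter, the most abundant marker of each list and markers at or near 0, and the 3 genes most alike to each member. A gene of the inhibitor list is not reported here and was left out of its counts. Cdh5, Cd14, Mertk, Tagln, Rgs5, Kcnj8, Ahsg and Scgb1a1 were chosen after their values were seen. Alternatives were the pseudocount, the filter, rescaled libraries, no trend, robust moderation, library weights, a replicate block and leaving out each library.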

Additional observations from a re-analysis of the deposited data

Results flagged for a closer look

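Groups of 4 libraries were examined for 1 library far from the rest in 22 cases (the 7 members and the 4 ratios in each group), and 2 stood apart by Dixon's criterion, where chance gives about 1 in 20. Serpine2 in LRP1 KO library 4 was at 25.6 FPKM, apart from the other 3 because these lay so close together, and it was the library farthest from WT. The ratio of Plau to Plaur in LRP1 KO library 4 was 0.478, nearer to WT than the 0.375 to 0.378 of the other 3. The same library lay between the groups on the first principal component.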

How the results depend on the processing

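Over 39 results and 624 alternatives, 490 values kept their direction and side of the threshold or moved little. No called value changed sign, while the median of the substrate list did, as given below. The estimate of Plat stayed between 0.07 and 0.45 and that of Plaur between 0.26 and 0.47, with neither passing. With 1 library left out, members called higher were 0 to 3 and lower 0 to 1, and estimates were -0.50 to -0.38 for Plau, 0.42 to 0.59 for Serpine2, 0.63 to 0.94 for Anxa2 and 0.43 to 0.69 for S100a10. Without a filter on low values 1 member was called higher, Serpine2, and Anxa2 was lost (0.77, limma adjusted p 0.0783). With library weights S100a10 passed at 0.60 (limma adjusted p 0.0115).

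The groups share replicate numbers, but same-numbered libraries deviated together with r of 0.158, 0.141, 0.34 and -0.312, so the numbers do not pair them. With a replicate block 1 member was called higher, Serpine2, and Anxa2 was lost (0.77, limma adjusted p 0.0617), and 1013 in place of 1547 genes were called. Total calls were 3021 without LRP1 KO library 4, 3003 with library weights and 512 to 1008 without another library.

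For the lists, without a filter the medians were 0.000119 (substrates), 0.0451 (inhibitors) and 0.19 (S100 genes), with 2 annexins and 0 S100 genes called. At 5 FPKM or more, 1 substrate gene, 1 inhibitor and 0 S100 genes were called, and the medians were -0.31 (substrates), 0.13 (binding proteins) and -0.28 (LDL receptor family). With library weights the substrate median was -0.0139, and 6 binding proteins, 2 LDL receptor family genes and 3 S100 genes were called. With the block, 1 binding protein and 2 annexins were called. With a pseudocount of 0.1, 0 S100 genes were called, as with no trend. With 1 library left out, medians ran from -0.0667 to 0.20 and calls from 1 to 2 (substrates), 0.27 to 0.36 and 2 to 4 (inhibitors), 0.17 to 0.29 and 1 to 7 (binding proteins), -0.25 to -0.14 and 1 (LDL receptor family), 0.15 to 0.27 and 2 to 6 (annexins), and 0.27 to 0.46 and 0 to 3 (S100 genes).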

Other observations

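The genes whose values across the 8 libraries were most like those of each member, on log2(FPKM + 1) and among 11318 genes, were listed as a description. All points share the libraries and their normalization. Urokinase (Plau) was nearest to Atpif1, an inhibitor of the mitochondrial ATP synthase (r = 0.988), and then to St3gal1 and Mboat1. Plaur was nearest to Eif5a (r = 0.982), Tnfrsf23 and Uso1, and Plat to Mcph1 (r = 0.971), Shank3 and Bcl10. Anxa2 was nearest to Cck (r = 0.996), Dynll1 and Rnf128, and S100a10 to Pitpna (r = 0.994), Suox and Nup43. Serpine2 had the weakest neighbours, with Rgs1 (r = 0.950), Acsl1 and Cyb5rl. Serpinf1 was nearest to Fam20a (r = 0.962). After the group means were taken off, its nearest genes were Mrc2 (r = 0.993), the collagen receptor that partners uPAR, Pcolce (r = 0.989), an enhancer of procollagen processing, and Accn3 (r = 0.987). By that measure S100a10 was nearest to Pitpna (r = 0.998) and Plaur to Mcm2 (r = 0.992). The nearest genes were picked from 11318 over 8 libraries, so such r values are high by selection.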
